A study of Canis lupus familiaris and Felis catus with 4 samples.

Results

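The mature miRNAs described here were mmu-miR-143-3p, mmu-miR-143-5p, mmu-miR-145a-5p, mmu-miR-145a-3p, mmu-miR-199a-3p, mmu-miR-199a-5p and mmu-miR-214-3p, named below without the mouse prefix and all known from smooth muscle and other mesenchymal cells. They were taken by name from the deposited table of mature miRNAs, in which 7 names matched 9 of 2031 entries, because miR-199a is listed at 2 places in the mouse genome and its copies were summed. Of the 7 miRNAs, miR-143-3p was the 1 with any read, with 207 and 88 reads in the pools of cats with normal renal function (NR) and with kidney disease (KD), and 20 and 13 reads in the corresponding pools of dogs. The other 6 miRNAs, held in 8 entries, had 0 reads in all 4 libraries. Across the table, 275 of 2031 entries (13.5%) had a read in at least 1 library.

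The data were small RNA libraries of urinary exosomes (UExo), the small vesicles that cells lining the kidney and the urinary tract shed into urine. Each group was sequenced as 1 pooled library, with 43 NR and 45 KD cats and 37 NR and 47 KD dogs. The cats were veterinary patients, placed in NR or KD by serum creatinine and urea nitrogen together with the clinical diagnosis, and how the dogs were placed is not given in the sources used here. The labels name no treatment and no strain. The study gives the breed and sex of its cats, and their shares differed between the NR and KD groups. Age is not given in the labels, and the study describes the KD cats as older on average than the NR cats, so that age and kidney state cannot be told apart in these pools. With 1 library per group, the comparisons below carry no test between animals, and every interval is a 95% interval that covers counting error only.

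The depth in mature miRNA reads was 18704 for NR cats, 23784 for KD cats, 20878 for NR dogs and 63355 for KD dogs, and lists of 4 values below keep this order. The reads of both species were aligned to the mouse genome, so a cat or dog miRNA that differs from its mouse counterpart can be undercounted. Whether the feline and canine forms of these miRNAs match the mouse sequences was not tested. The table also carries a remark that miR-143-3p is often cloned with a U at its 3′ end that does not match the genome, and the part of such forms in its counts was not tested. A single pair of miRNAs, miR-10a-5p and miR-10b-5p, took 44.7% of the NR cat library and 70.4% to 74.9% in the other libraries.

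A miRNA gene is transcribed as a hairpin, from which the 5p and 3p arms are cut, and usually 1 arm is kept by the cell as the mature form that pairs with target mRNAs through its seed. The miR-143 and miR-145 hairpins lie side by side and are made from a shared primary transcript that is abundant in vascular and visceral smooth muscle, where both miRNAs are known for maintaining the contractile state. The miR-199a and miR-214 hairpins on mouse chromosome 1 are likewise made from a shared transcript, Dnm3os, which runs antisense to the gene Dnm3, and they are abundant in fibroblasts and other mesenchymal cells. In kidney, miR-21, miR-199a and miR-214 are known from studies of fibrosis.

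In mm10 the miR-143-3p entry lies on the minus strand of chromosome 18 at 61649199 to 61649219, and its partner arm miR-143-5p at 61649233 to 61649253. The miR-145a entries lie on the same strand at 61647866 to 61647888 for the 5p arm and 61647827 to 61647848 for the 3p arm, with 1310 bases between the nearest entries of the hairpins. Mouse miR-199a has 1 copy on the minus strand of chromosome 9 (5p at 21496537 to 21496559, 3p at 21496498 to 21496519) and 1 on the plus strand of chromosome 1 (5p at 162217844 to 162217866, 3p at 162217883 to 162217904). The miR-214-3p entry lies downstream of the latter at 162223438 to 162223459, and 5492 bases separate the miR-199a and miR-214 entries. In RefSeq's gene table of the dog, MIR143 and MIR145 were neighbours with 0 genes starting between them, and the same held for MIR199-2 and MIR214.

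The mature sequences of the miR-199 and miR-214 family, copied from the deposited table, show which of these entries a read can tell apart. They run 5′ to 3′, and the capitals mark the seed, bases 2 to 8.
miR-199a-3p and miR-199b-3p: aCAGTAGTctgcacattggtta
miR-199a-5p: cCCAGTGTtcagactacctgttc
miR-199b-5p: cCCAGTGTttagactacctgttc
miR-214-3p: aCAGCAGGcacagacaggcagt
miR-214-5p: tGCCTGTCtacacttgctgtgc
The 3p arms of miR-199a and miR-199b are identical over 22 bases, so the 3 entries that carry this sequence are 1 species as far as reads can show. The 5p arms share their seed and differ by 1 substitution, C10T, counted from the 5′ end with the base of miR-199a-5p given before that of miR-199b-5p. The seed of miR-214-3p was shared with 1 other listed name, miR-761, which had 0 reads. The miR-143-3p seed was shared with 0 other names in the table, and that of miR-145a-5p with miR-145b, which had 0 reads.

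miR-145a, transcribed together with miR-143, was not detected in any library. Both of its arms had 0 reads of 18704 in NR cats, which allows a share of up to 0.0160%, 0 of 23784 in KD cats (up to 0.0126%), 0 of 20878 in NR dogs (up to 0.0144%) and 0 of 63355 in KD dogs (up to 0.00474%). These limits are the 3 reads that a count of 0 allows in each library, and they hold equally for miR-143-5p, both arms of miR-199a and miR-214-3p. Over the 126721 reads of the 4 libraries the limit was 0.00237%.

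With miR-145a-5p at 0, the count of miR-143-3p was 69.0-fold that floor of 3 reads in NR cats and 29.3-fold in KD cats. In dogs, where miR-143-3p itself had few reads, the value was 6.67-fold in NR and 4.33-fold in KD. It was 109-fold over the 328 reads of the 4 libraries, with 1 floor of 3 reads for the sum. The same values apply to each of the other 5 undetected miRNAs. They leave out the counting error of miR-143-3p, so they are not lower limits of the ratio. The values differ between libraries because they follow the count of miR-143-3p itself.

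An abundant hairpin whose clustered neighbours were all at exactly 0 reads was uncommon in this table. There were 21 hairpins with at least 100 reads and a neighbour on the same strand within 10 kb, and in 2 of them (9.52%) every neighbour had 0 reads. These were miR-143 beside miR-145a and miR-26a beside miR-546, the latter named after its values were seen. In the other 19, the most abundant neighbour had 3 to 167 reads. The lowest value, 3 reads, is also the limit taken for a count of 0. It was that of miR-100 beside let-7a (339 reads) and of miR-15b beside miR-16 (204), named after their values were seen. At this depth the miR-143 and miR-145a pair cannot be set apart from these. The empty partner arm was ordinary by comparison: among 44 hairpins with both arms listed and at least 100 reads on 1 of them, the other arm had 0 reads in 25 (56.8%), with miR-143-5p among them.

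The relatives of the miR-199 and miR-214 group were nearly as empty. miR-199b-5p, made in the mouse from chromosome 2 at 32318485 to 32318507, had 3 reads, all from NR cats. miR-199b-3p, miR-214-5p and miR-145b had 0 reads in all 4 libraries. No level of the miR-199a and miR-214 group could therefore be compared between species or kidney states, and its change with kidney disease was not detectable at this depth. The GC content was 36.4% to 61.9% over the 6 undetected miRNAs and 47.6% for miR-143-3p, against a median of 45.5% over entries with a read (interquartile range 38.1% to 50%) and 50% over entries without (38.1% to 59.1%). Its part in the counts of 0 was not tested.

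miR-143-3p formed 1.11% of the mature reads in NR cats (exact binomial 95% interval 0.962% to 1.27%) and 0.370% in KD cats (0.297% to 0.456%). Its share was 0.0958% in NR dogs (0.0585% to 0.148%) and 0.0205% in KD dogs (0.0109% to 0.0351%). Taken in that order the shares were each lower than the last with no overlap of neighbouring intervals, so on the scale of library shares all neighbours in the order differed by more than counting error. In bulk pools such as these, fewer vesicles of a given origin and less RNA in each of them cannot be told apart. By rank, miR-143-3p was 19th of 215 entries with a read in NR cats, 13th of 155 in KD cats, 36th of 178 in NR dogs and 71st of 180 in KD dogs.

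**Figure D1:**
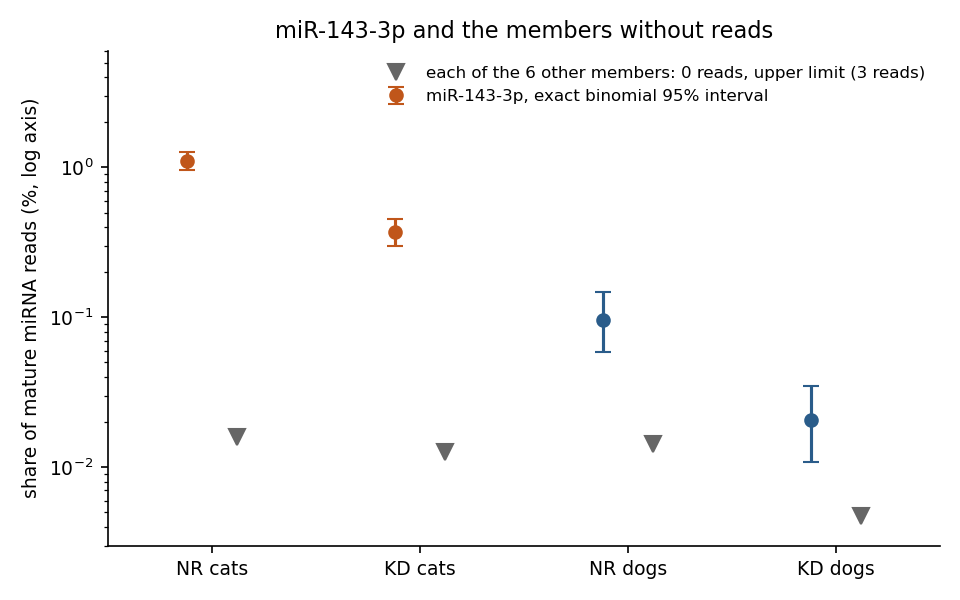
Share of mature miRNA reads (%, log axis) taken by miR-143-3p in each of the 4 pooled libraries, as circles with exact binomial 95% intervals, and the upper limit of 3 reads for each of the 6 undetected miRNAs, as triangles. miR-143-3p lies between 0.0205% and 1.11% and above the limit in every library, by the widest margin in NR cats and the narrowest in KD dogs.

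The authors' normalized value of miR-143-3p was recovered as its read count times 1 factor per library (1.16, 2.36, 0.689 and 0.531), which gave 239.7 for NR cats, 207 for KD cats, 13.8 for NR dogs and 6.90 for KD dogs. On this scale the cat pools lay close together and the dog pools lay far below both. KD cats were still 15.05-fold above NR dogs (9.18 to 25.8). The deposited table gives these levels as log2 values of 7.90, 7.70, 3.78 and 2.79.

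Kidney disease in cats was compared first. The normalized miR-143-3p level of KD cats was 0.865 times that of NR cats, a log2 difference of -0.21 (-0.59 to 0.16), so the pools could not be separated beyond counting error. Across the 79 entries whose normalized values averaged at least 10 the median was -0.54 on a log2(value + 1) scale, which is used for all such medians, and 46 of them had a lower log2 change than miR-143-3p and 32 a higher one. In that comparison 28 of 79 entries (35.4%) were lower in KD by over 2-fold and 16 (20.3%) were higher by over 2-fold, with miR-143-3p in neither set.

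The direction in cats depended on the scaling between libraries. The log2 difference was -1.58 (-1.96 to -1.21) with total count scaling and -1.23 (-1.61 to -0.87) on read counts with no scaling, which is 2.35-fold lower in KD. It was 0.0907 (-0.29 to 0.46) with edgeR's TMM factors and 0.32 (-0.06 to 0.69) with totals that left out the entries of miR-10, miR-486 and miR-3107. These took 47.9% of the NR cat library and 86.0% of the KD cat library. Over 7 scalings miR-143-3p was lower in KD cats in 5, the interval included 0 in 5, and the difference passed 2-fold in 2. With a minimum of over 150 reads in NR and a fold over 2 on read counts, the selection used for lower miRNAs, 14 of 22 entries (63.6%) were called and miR-143-3p was among them. The study itself lists miR-143 as lower in KD cats. It marks both arms as not expressed in kidney and did not keep miR-143 as a candidate.

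In dogs the miR-143-3p level was lower in KD than in NR under each of the 7 scalings, with intervals made wide by the counts of 20 and 13 reads. The log2 difference was -0.998 on the deposited normalization (-2.13 to 0.08), -0.62 with no scaling (-1.75 to 0.46), -1.82 with edgeR's TMM factors (-2.95 to -0.74) and -2.22 with total count scaling (-3.35 to -1.14). The interval included 0 in 2 of the 7, the deposited normalization and no scaling, and the difference passed 2-fold in the other 5.

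Among 54 entries compared in dogs on the deposited normalization, the median was 1.03 on the log2(value + 1) scale. Set against it miR-143-3p lay at -1.93 on that scale, while in cats it lay at 0.34 against the median of its comparison. No entry of the 54 (0%) was lower by over 2-fold and 28 (51.9%) were higher by over 2-fold. miR-143-3p, at 0.501 times the NR level, passed the minimum average of 10 only through its NR value, and its place among the 54 follows from that minimum. Some entries under it were lower in KD by more, such as miR-470-5p (20 reads in NR and 11 in KD) and miR-29a-3p (16 and 6), both named after their values were seen.

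**Figure D2:**
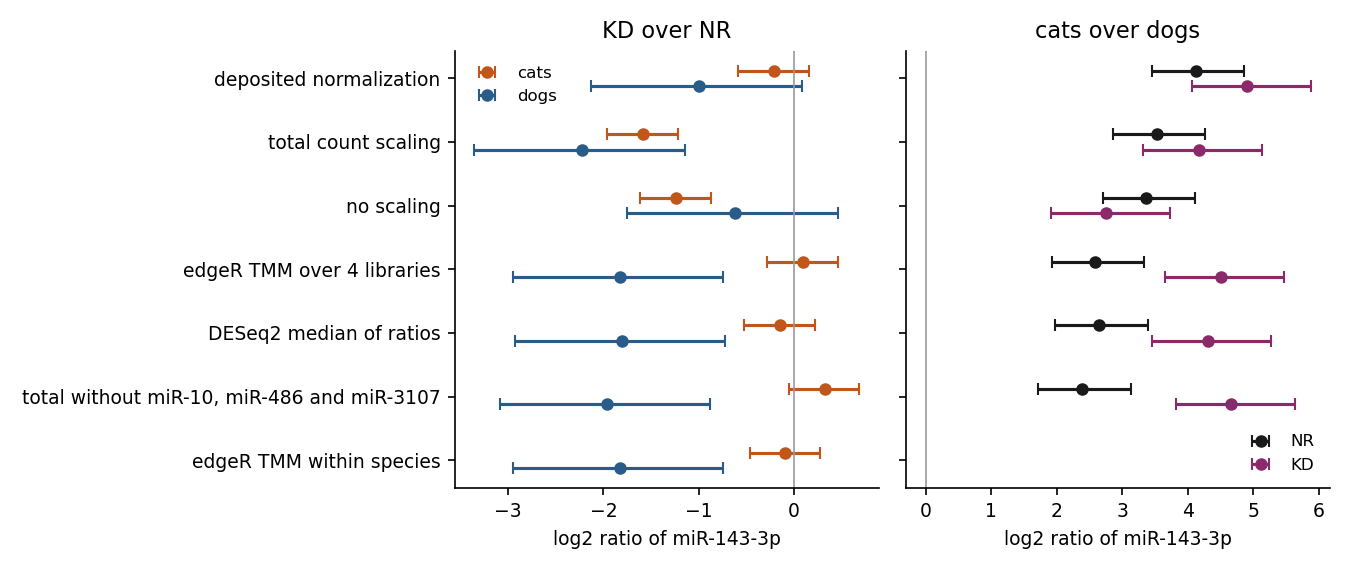
Log2 ratio of miR-143-3p under each scaling between libraries, with 95% intervals for counting error. In the left panel (KD over NR) the cat values run from -1.58 to 0.32 on both sides of 0 while the dog values run from -2.22 to -0.62, and in the right panel (cats over dogs) all values lie between 2.39 and 4.91.

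The difference between the species in the KD over NR change depended on the scaling. Over 7 scalings its interval lay wholly below 0 in 4 and included 0 in 3. Dogs minus cats, the log2 value was -0.79 (-1.99 to 0.36) on the deposited normalization, -1.91 (-3.11 to -0.76) with edgeR's TMM factors and 0.61 (-0.59 to 1.76) with no scaling, which gave the only positive value of the 7.

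The widest contrast was between the species. On the deposited normalization miR-143-3p was 17.4-fold higher in NR cats than in NR dogs (11.0 to 29.1) and 30.0-fold higher in KD cats than in KD dogs (16.7 to 58.7). Over 6 scalings the fold ran from 5.23 to 17.4 in NR and from 6.77 to 30.0 in KD, and no interval included equal levels. Species cannot be told apart here from the library or from how well the reads of each species fit the mouse reference.

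Many other miRNAs were also higher in the NR cat library. On the deposited normalization 46 of 66 entries (69.7%) were over 2-fold higher in NR cats than in NR dogs, with a median log2 difference of 1.79, and only miR-142-5p (415 reads against 6) and miR-146a-5p (229 against 11) stood further towards cats than miR-143-3p. Both are miRNAs of leukocytes. In KD the entries as a whole were centred near equality, with a median of 0.21 and 23 of 69 entries (33.3%) over 2-fold higher in cats. There miR-143-3p stood furthest towards cats of the 69 entries, and 0 entries stood further under each of the 6 scalings. The scalings reuse the same 88 and 13 reads and shift all entries of a library together, so they are not separate evidence for this rank. The KD dog value of 6.90 lay under the minimum average for the comparison, which miR-143-3p passed only through its KD cat value of 207.

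**Figure D3:**
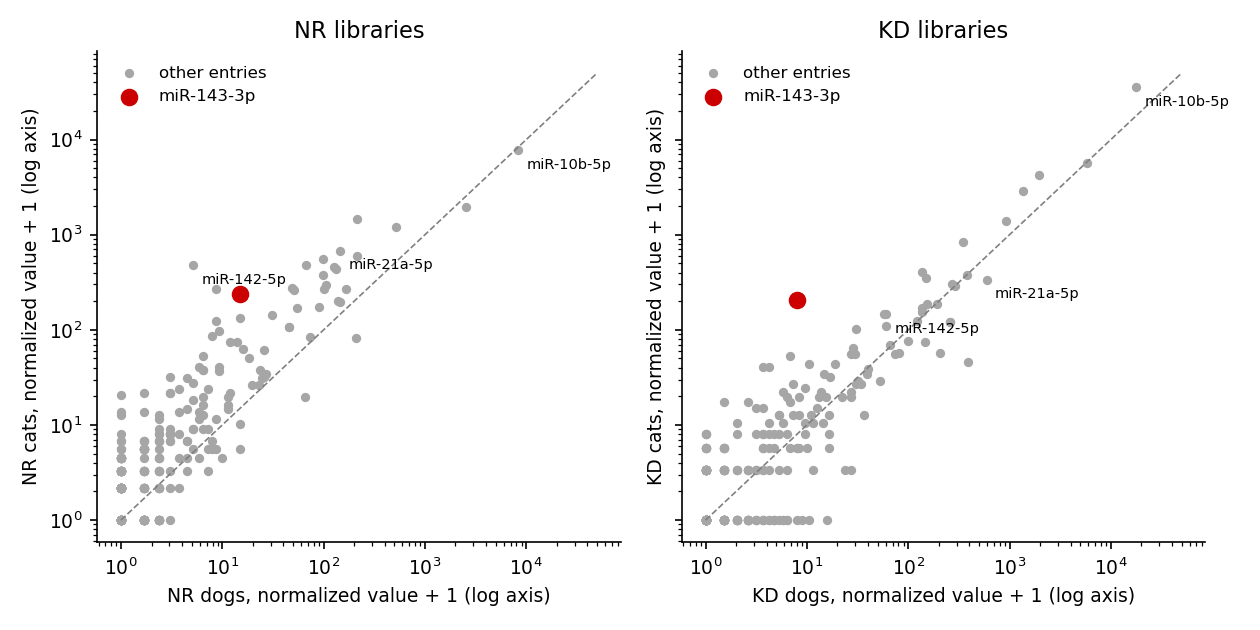
Normalized value + 1 of each mature miRNA entry in cats against dogs, on log axes, for the NR libraries (left) and the KD libraries (right), with miR-143-3p in red and the dashed line at equal values. miR-143-3p lies above the line in both panels, at 239.7 against 13.8 in NR and at 207 against 6.90 in KD, where none of the 69 entries compared lies further towards cats.

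Ratios within a library need no scaling between libraries, so miR-143-3p was also read against other miRNAs of the same pools. Among cats there were 16.3 reads of miR-143-3p per 100 reads of miR-22-3p in NR and 55.3 in KD, a log2 change of 1.76 (1.31 to 2.21). In dogs the same ratio went from 6.56 to 1.81, a change of -1.85 (-3.00 to -0.75). miR-22-3p is a broadly made miRNA known from muscle and from fibroblasts, and miR-143-3p gained on it in the KD cat pool and lost against it in the KD dog pool.

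The opposite directions recurred with miR-21a-5p, a miRNA known for its rise in fibrotic and injured kidney. Per 100 reads of miR-21a-5p the NR cats had 35.4 reads of miR-143-3p and the KD cats 61.5, a change of 0.80 (0.33 to 1.26). The dog values were 9.48 for NR and 1.16 for KD, a change of -3.03 (-4.18 to -1.92). The counts beneath these ratios differed in direction too, since miR-21a-5p went from 585 reads in the NR cat pool to 143 in the KD cat pool, and from 211 to 1120 reads between the dog pools. In TaqMan PCR of individual cats, the study found miR-21a higher in KD when normalized to urinary creatinine or urinary RNA. It found no significant change in the raw level, and describes the sequencing and PCR results as different.

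Against the leukocyte miRNAs the split was wider. Relative to miR-142-5p, the change of miR-143-3p from NR to KD was 1.51 in cats (0.96 to 2.06) and -4.84 in dogs (-6.65 to -3.14). Relative to miR-146a-5p, known for damping inflammatory responses, it was 0.65 (0.09 to 1.22) and -3.92 (-5.42 to -2.43). The NR dog library had only 6 reads of miR-142-5p and 11 of miR-146a-5p. The leukocyte list as a whole held 680, 125, 17 and 231 reads, and the part of these cells in the ratios was not tested.

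Relative to kidney and epithelial miRNAs, the cat changes of miR-143-3p lay nearer to 0 than the dog changes. The change against miR-30a-5p, an abundant miRNA of the kidney tubule, was -0.41 in cats (-0.82 to -0.01) and -1.83 in dogs. Against miR-192-5p, also of kidney tubule and gut epithelium, the cat value was 0.65 (-0.20 to 1.55) and the dog value -1.90. Against the epithelial miR-200b-3p it was -0.38 in cats (-1.39 to 0.68) and -1.56 in dogs, and against miR-141-3p of the same family -1.82 and -2.68. The cat intervals for miR-192-5p and miR-200b-3p included 0.

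Against the most abundant miRNAs, the direction was the same in both species. The change relative to miR-10b-5p was -2.40 in cats (-2.78 to -2.03) and -2.11 in dogs (-3.24 to -1.03), from 3.09 to 0.585 reads per 100 in cats and from 0.167 to 0.0387 in dogs. Relative to miR-486-5p, a miRNA of red blood cells, it was -3.13 and -4.80, and relative to miR-3107-5p, which carries the same mature sequence, -4.05 and -5.21. Reads of these entries cannot be divided reliably between them. Counting every single partner examined, miR-143-3p was relatively higher in KD cats against 6 of 12 partners and lower against 6, with 3 intervals that included 0. It was lower in KD dogs against 13 of 13, with 2 such intervals. All dog ratios reuse the same 20 and 13 reads of miR-143-3p. On the deposited normalization 53 of the 54 dog entries compared had a higher change than miR-143-3p, while of 79 cat entries 46 had a lower and 32 a higher one. Nearly any dog partner would thus give a negative value, so the tally is not repeated evidence.

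**Figure D4:**
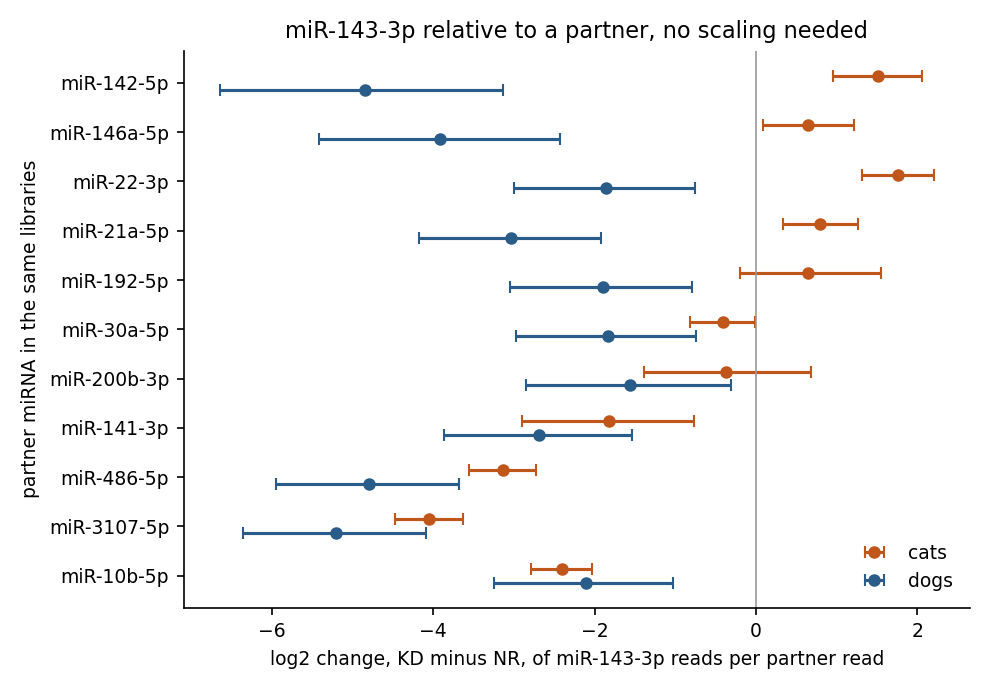
Log2 change from NR to KD of miR-143-3p reads per read of 11 partner miRNAs in the same libraries, with 95% intervals for counting error, for cats (orange) and dogs (blue). All dog values lie below 0, and the cat values lie above 0 for miR-142-5p, miR-146a-5p, miR-22-3p, miR-21a-5p and miR-192-5p, where the last interval includes 0.

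The labelled origin of miR-143-3p was checked against other miRNAs of the same cells. Of 12 other smooth muscle and mesenchymal entries, 8 had a read in any library, and their summed reads were 1872 (10.01% of the library), 308 (1.29%), 531 (2.54%) and 1859 (2.93%). Nearly all of this was miR-22-3p (1269, 159, 305 and 717 reads) and miR-21a-5p, both of which many other cell types also make. Without them, the remaining 10 entries summed to 18, 6, 15 and 22 reads. miR-143-3p thus had more reads than these 10 entries together in both cat pools and in NR dogs, and fewer in KD dogs.

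Apart from miR-22-3p and miR-21a-5p, the listed mesenchymal entries were sparse in every pool. miR-125b-5p, abundant in fibroblasts, had 6, 0, 7 and 19 reads, miR-24-3p had 8, 5, 4 and 1, and miR-100-5p had at most 1 in any library. miR-199b-3p, miR-214-5p, miR-145b and miR-497-5p were at 0. miR-145a, miR-199a and miR-214-3p were at 0 as well, so that, miR-22-3p and miR-21a-5p aside, miR-143-3p was the 1 smooth muscle or mesenchymal miRNA examined with over 100 reads. The cells from which it came were not tested.

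Markers of other muscle and of the vessel lining were close to 0. The 7 entries of skeletal and heart muscle summed to 1 read in NR cats, 1 in NR dogs and 0 in both KD pools, with miR-133a-3p and miR-208b-3p at 1 read each and the other 5, including miR-1a-3p and miR-206-3p, at 0. The 4 endothelial entries summed to 6, 1, 2 and 6 reads, of which miR-126a-5p had 4, 1, 1 and 3, and miR-126a-3p, the most used endothelial marker, had 2 in NR cats and 0 elsewhere, while miR-503-5p was at 0. In the NR cat pool miR-143-3p had 34.5 reads per endothelial read.

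Epithelial and tubular miRNAs had reads in every pool. All 7 epithelial entries did so, summing to 106, 107, 199 and 596. miR-141-3p (16, 24, 93 and 388 reads) and miR-200b-3p (29, 16, 38 and 73) had the most over the 4 libraries, and in both cat pools miR-203-3p, named after its values were seen, had more than either (31 and 43). The 5 tubular entries summed to 1167, 617, 1106 and 2569, led by miR-30a-5p and miR-192-5p over the 4 libraries, with miR-194-5p at 0 in KD cats. For each tubular read miR-143-3p had 0.177, 0.143, 0.0181 and 0.00506 reads. The cat values of this ratio did not differ beyond counting error, with a log2 change of -0.31 (-0.72 to 0.08). The order of the groups was another against other lists, with 0.111, 0.286, 0.0377 and 0.00699 reads per mesenchymal read and 0.304, 0.704, 1.18 and 0.0563 per leukocyte read.

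The summed reads of the red blood cell list were higher in both KD pools, with 615 reads (3.29%) in the NR and 3025 (12.7%) in the KD pool of cats, and 303 (1.45%) and 6258 (9.88%) in those of dogs. The sum was carried by miR-3107-5p and miR-486-5p, which carry the same mature sequence, and does not describe the list as a whole. miR-451a, the defining red cell miRNA, had 32, 1, 8 and 20 reads and miR-144-3p had 1 read in NR cats and 0 elsewhere. Both thus had fewer reads in KD than in NR cats. The part of this list in the shares of miR-143-3p was not tested, beyond the scaling that left the miR-486 and miR-3107 entries out.

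The entries most like miR-143-3p over the 4 libraries were found by the Euclidean distance between log2 shares, each centred over the libraries, among 67 entries with at least 10 reads on average. miR-320-3p was nearest at a distance of 2.64 (107, 18, 11 and 34 reads), followed by miR-27b-3p at 2.71 (417, 171, 96 and 257) and miR-25-3p at 2.74 (27, 18, 3 and 18). The median distance was 4.09 and the largest 6.90. From NR to KD dogs the library share went from 0.0527% to 0.0537% for miR-320-3p, from 0.460% to 0.406% for miR-27b-3p and from 0.0144% to 0.0284% for miR-25-3p, beside 0.0958% to 0.0205% for miR-143-3p. No such comparison was possible for miR-199a-3p, which was at 0 in every library.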

How the data were processed

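The authors isolated UExo RNA with a column kit, prepared pooled libraries with the TruSeq Small RNA kit, trimmed adaptors and inserts under 14 nt, used Bowtie 1.0.0 to place reads on the mouse assembly mm10 with several locations allowed, and made counts per annotated mouse small RNA in StrandNGS. CASAVA 1.8.2 is also named in the submitters' processing notes. The counting of reads that fit several places is not given in the sources used here. The deposited table pairs raw read counts with log2 values normalized by TMM. Each deposited log2 value is the log2 count shifted by a constant of its library, so levels were taken as count times that factor. There were 4 emptied lines, not analysed here.

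The members, marker lists and comparisons were chosen with earlier results of these data known. The miRNAs named were the members, their near relatives, the 3 nearest entries by distance of log2 RPM (pseudocount 1), and for each marker list the 2 entries with the most reads and defining markers at 0. Other list members and the entries further towards cats were named after their values were seen, and miR-497a-5p was matched to miR-497-5p after the names were seen. Log2 ratios have exact conditional (Clopper-Pearson) 95% intervals, and shares have exact binomial ones. They cover counting error only, since reads without molecular identifiers are not independent molecules. For an entry at 0, 3 reads were taken as the limit. The background shares used entries averaging at least 10 on the normalized scale and a fold of 2. The selection with over 150 reads and a fold over 2 follows the study's cut-offs without its kidney expression step. Alternatives were 6 other scalings, minimum values of 50 and none, and folds of 1.5 and 3. TMM within each species was chosen after seeing the data. Python 3.11.15, numpy 2.4.6, pandas 2.3.3, scipy 1.17.1, matplotlib 3.10.9, R 4.3.3, edgeR 4.0.16 and DESeq2 1.42.0 were used, the last pair for scaling factors only. RefSeq's dog gene table was used for gene order only.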

Additional observations from a re-analysis of the deposited data

Results flagged for a closer look

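The change of miR-143-3p from NR to KD went opposite ways in cats and dogs, with both intervals clear of 0, relative to 4 miRNAs and 2 lists of the same libraries. Relative to others, such as miR-10b-5p, miR-486-5p and miR-141-3p, it was negative in both species. The reads of miR-143-3p itself were fewer in KD in both species, from 207 to 88 in cats and from 20 to 13 in dogs. In read counts, not corrected for depth, the 4 partner miRNAs were lower in the KD than the NR cat pool and higher in the KD than the NR dog pool. For miR-22-3p these counts were 1269 to 159 in cats and 305 to 717 in dogs. Dogs minus cats, the log2 difference was -3.62 relative to miR-22-3p, -3.83 relative to miR-21a-5p and -3.80 relative to the sum of the 12 smooth muscle and mesenchymal entries. It was -6.35 relative to miR-142-5p, -4.57 relative to miR-146a-5p and -5.60 relative to the leukocyte list. The difference between the species was not tested, since each group was 1 pooled library, and these 6 values share the same counts of miR-143-3p. The 2 lists are not further cases, since most of their reads came from the same 4 miRNAs. In NR cats, miR-22-3p and miR-21a-5p gave 1269 and 585 of the 1872 mesenchymal reads. There miR-142-5p and miR-146a-5p gave 415 and 229 of the 680 leukocyte reads.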

How the results depend on the processing

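The comparison of KD with NR cats kept no fixed direction for miR-143-3p: from -0.21 on the deposited normalization the log2 difference went to -1.58 with total count scaling, -1.23 with no scaling, 0.0907 with edgeR TMM over 4 libraries and 0.32 with totals that left out the entries of miR-10, miR-486 and miR-3107. In dogs it moved from -0.998 to -2.22 with total count scaling. It was -1.82 with edgeR TMM, over 4 libraries or within species, -1.80 with DESeq2's median of ratios and -1.96 without those entries. The intervals of all these alternatives left out 0, unlike those of the deposited normalization and of no scaling (-0.62). Cats over dogs, the NR value of 4.12 moved to 3.37 with no scaling, 2.59 with edgeR TMM, 2.65 with DESeq2's median of ratios and 2.39 without those entries, and the KD value of 4.91 moved to 2.76 with no scaling. The counts of entries past 2-fold depended on the minimum value and the scaling. Lower in KD cats, 28 became 12 with a minimum of 50, 117 with none, 16 at a fold of 3, 54 with total count scaling and 15 with edgeR TMM. Lower in KD dogs, 0 became 44 with no minimum, 3 at a fold of 1.5, 10 with total count scaling, 1 with no scaling and 5 with edgeR TMM. Higher in NR cats than NR dogs, 46 became 23 with a minimum of 50, 156 with none and 19 with edgeR TMM. Higher in KD cats than KD dogs, 23 became 9 with a minimum of 50, 78 with none, 9 at a fold of 3, 6 with total count scaling, 3 with no scaling and 11 with edgeR TMM. The cause was not tested, apart from the minimum values and folds, which change how many entries are compared or counted. In dogs the count of miR-143-3p limits the precision, since 20 and 13 reads leave a log2 interval from -2.13 to 0.08. Alternatives for miR-199a-3p, for its genomic copies and for ratios between arms or between miR-199a and miR-214-3p gave no value, because the entries were at 0. No paired analysis was possible because each group is 1 pooled library.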
